A study of Mus musculus with 15 samples.

Results

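The intermediate mesoderm genes Osr1, Osr2, Lhx1, Pax2, Pax8 and Wt1 were followed through the differentiation of mouse embryonic stem (ES) cells towards paraxial mesoderm. The members were chosen as transcription factor genes that mark the intermediate mesoderm or the early kidney, and there were 6 of them beside 18193 genes that had an array probe set naming a single gene. Of the members, 5 had such a probe set; Pax2 was not analysed here, because the annotation used names no probe set for Pax2 alone. For each gene the probe set with the highest mean over all arrays was read, and any other probe set served as a check.

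RNA was measured on 15 arrays in 5 groups of 3. The CDL and RDL groups were first given BMP4 at 10 ng/ml for 2 days in N2B27 medium, and then moved to medium with 15% serum replacement, DMSO at 0.5% and the BMP receptor inhibitor LDN193189 at 0.1 µM. CDL cells received in that second phase the GSK3 inhibitor CHIRON99021 at 1 µM, and RDL cells received R-spondin 3 (Rspo3), a secreted enhancer of Wnt signalling, at 10 ng/ml. Both agents therefore act on the canonical Wnt pathway, and both media also contain the BMP inhibitor. Some treatment labels end the inhibitor's number differently, and the protocol's LDN193189 is used here. Cells of day 4 came from the E14 line (129P2) and were sorted as positive for the Msgn1repV reporter of presomitic mesoderm. Cells of day 6 came from the CK35 line (129Sv) and were sorted as positive for Pax3GFP. The ES cells of day 0 were unsorted E14 cells kept with LIF, the inhibitors CHIRON99021 and PD0325901, and 15% serum, on inactivated embryonic fibroblasts as feeders until 1 passage before differentiation. Cell line, strain and sort gate change together with the step to day 6, so a difference between day 6 and day 4, or between day 6 and ES cells, cannot be told apart from these. The reporters bias each sort towards paraxial mesoderm, and the labels call the replicates biological without saying what separated them.

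The intermediate mesoderm lies between the paraxial mesoderm, which forms the somites, and the lateral plate, and it gives rise to the kidneys and gonads. Osr1 is among the earliest genes expressed there and is also active in the adjoining lateral plate. Lhx1, a LIM homeodomain factor, is expressed in the early intermediate mesoderm and nephric duct, and before that in the anterior streak and organiser region. Pax2 and Pax8 act redundantly in forming the nephric lineage. Wt1 encodes a zinc finger factor of the kidney mesenchyme, podocytes and coelomic epithelium, and Osr2 is a relative of Osr1 that is expressed later.

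The promoters of Lhx1 and Pax8 are shown because the first is the member with the largest differences and the second a kidney factor near background on every array. RefSeq windows (GRCm38.p6, minus strand) were available for these members and for Pax2; those of Osr1, Osr2 and Wt1 were not used here. Each line below is the stretch that ends at the base before the annotated start, at chr11:84525535-84525784 for Lhx1 and chr2:24475600-24475849 for Pax8, with the CCAAT pentamer, on either strand, in capitals.
Lhx1: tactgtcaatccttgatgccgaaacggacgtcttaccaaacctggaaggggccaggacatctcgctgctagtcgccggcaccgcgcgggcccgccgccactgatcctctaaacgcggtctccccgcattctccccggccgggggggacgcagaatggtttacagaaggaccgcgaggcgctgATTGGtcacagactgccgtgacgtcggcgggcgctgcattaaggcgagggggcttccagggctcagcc
Pax8: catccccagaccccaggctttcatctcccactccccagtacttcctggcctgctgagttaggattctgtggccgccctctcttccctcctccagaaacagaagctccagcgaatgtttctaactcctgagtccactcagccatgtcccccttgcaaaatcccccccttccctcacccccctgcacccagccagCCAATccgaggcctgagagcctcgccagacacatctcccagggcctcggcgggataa
Both windows were rich in G and C, at 64.8% for Lhx1 and 60.4% for Pax8. Each held 1 CCAAT match, read as ATTGG in the Lhx1 line, whose first base lay at -68 for Lhx1 and at -57 for Pax8 counting back from the start. The pentamer was found on either strand in 33.8% of the 32851 mouse windows of the same length, and it was added after these windows had been read. CTTTGAT and CTTTGAA, letters bound by TCF/LEF factors of the Wnt pathway, and AGGTCA, a nuclear receptor half-site, had no match on either strand in the Lhx1, Pax2 or Pax8 windows. They occur in 3.21%, 4.46% and 14.0% of all windows, in that order.

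2 arrays stood apart. CDL day 4 replicate 1 correlated with ES arrays at a mean r of 0.957 across genes, against 0.932 for both other CDL day 4 arrays, and its summed signal of 8 pluripotency genes was 6555, against 960 to 1169 in the others of its group. It was the lowest of its group for Lhx1 and Osr1. RDL day 6 replicate 1 correlated with the others of its group at a mean r of 0.989, below every other array, and was the lowest of its group for Lhx1, Osr1 and Wt1. Genes that mark the sorted cells followed the labels: Msgn1, a presomitic mesoderm factor, had 337 ± 27.4 in CDL and 196 ± 46.6 in RDL at day 4 against 29.1 in ES cells, and Pax3, expressed in the dermomyotome, had 523 ± 91.9 in CDL and 303 ± 57.7 in RDL at day 6 against 58.9 in ES cells.

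Lhx1 was the one member with a strong signal. Its signal was 21.3, 22.8 and 22.3 in ES cells at day 0. At day 4 it was 351, 447 and 364 in CDL and 808, 875 and 692 in RDL, and at day 6 it was 52.5, 43.1 and 50.3 in CDL and 122, 295 and 260 in RDL. The 3 RDL arrays of day 4 were the highest of the 15, those of ES cells lay below every array median (29.4 to 31.2), and no 2 groups overlapped. In order of mean signal the groups ran from RDL day 4 (792 ± 92.6), CDL day 4 (387 ± 51.7), RDL day 6 (225 ± 91.2) and CDL day 6 (48.6 ± 4.90) to ES cells (22.1 ± 0.740; SD, n = 3 each). CDL day 4 and RDL day 6, neighbours in that order, were not tested against each other.

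**Figure D1:**
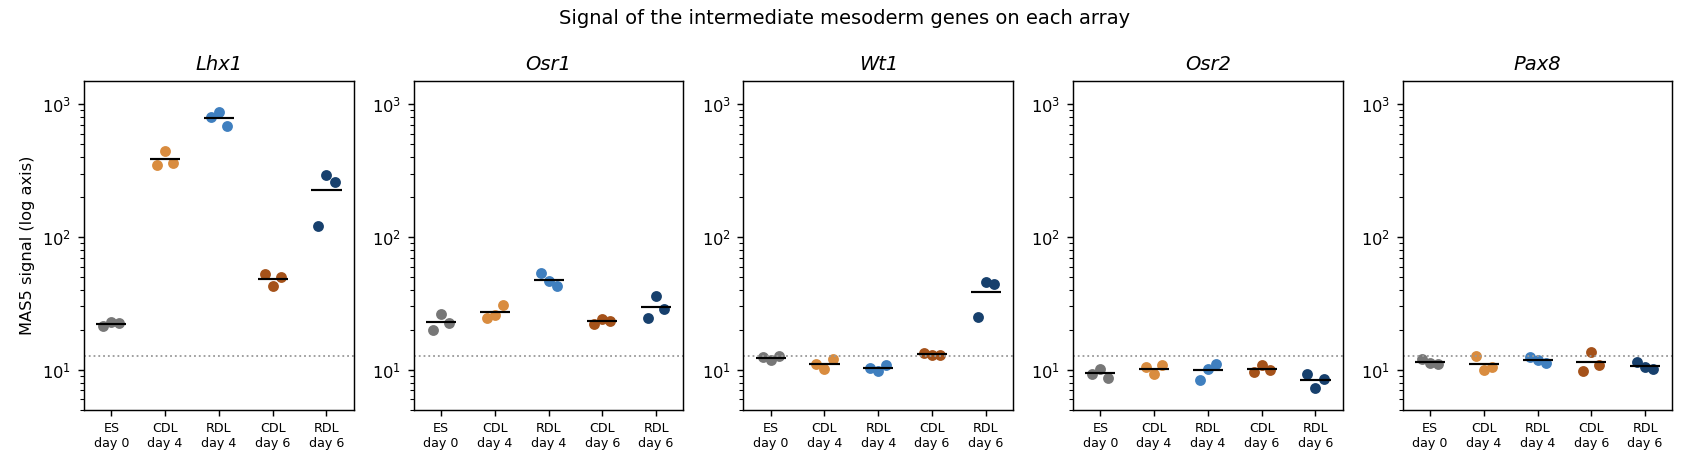
MAS5 signal of each measured intermediate mesoderm gene on a log axis, by array, with groups along the horizontal axis, a bar at each group mean (n = 3) and a dotted line at a signal of 12.6. Lhx1 separates all 5 groups, Osr1 is highest in RDL day 4, Wt1 stands out in RDL day 6, and Osr2 and Pax8 stay near background throughout.

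Osr1 was far dimmer. ES cells gave 19.9, 26.4 and 22.7 at day 0. At day 4 the signal was 24.5, 26.1 and 30.9 in CDL and 53.6, 46.7 and 42.7 in RDL, and at day 6 it was 22.0, 24.0 and 23.5 in CDL and 24.7, 36.1 and 28.7 in RDL. RDL day 4 (mean 47.7 ± 5.50; SD, n = 3) therefore stood above every other array. The other groups followed closely, with means of 29.8 for RDL day 6, 27.2 for CDL day 4, 23.2 for CDL day 6 and 23.0 for ES cells. RDL day 6 overlapped CDL day 4, and ES cells overlapped RDL day 6, CDL day 4 and CDL day 6. Osr1 was above the array median on 5 of 15 arrays.

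Wt1 was near background in all groups but RDL at day 6. At day 6 its signal was 13.5, 12.9 and 12.9 in CDL and 24.9, 46.1 and 44.1 in RDL. The remaining groups lay lower still, with 12.4, 11.9 and 12.6 in ES cells, 11.0, 10.1 and 12.1 in CDL day 4 and 10.3, 9.76 and 10.9 in RDL day 4. Wt1 exceeded the array median on 2 arrays, both of RDL day 6, so the filter on dim genes (above the array median on at least 3 arrays) left it out of the main test by 1 array.

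Osr2 and Pax8 were below the median on every array. The Osr2 signal ran from 7.26 to 11.1 with a median of 9.69, and a further Osr2 probe set from 7.27 to 9.19. The Pax8 signal ran from 9.73 to 13.6 with a median of 11.2, and a further Pax8 probe set from 5.51 to 6.69. The 25th percentile of an array was 12.4 to 13.2, so both genes lay at the low end of all probe sets, and a low level of either transcript was not detectable with these probes.

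Differences were tested on log2(signal + 12.6) with limma over 12400 genes, calling an adjusted p under 0.05 after Benjamini-Hochberg; 2 members, Lhx1 and Osr1, could enter. Osr1 exceeded the array median on 3 RDL day 4 arrays, 1 CDL day 4 array and 1 RDL day 6 array, so it entered only through RDL day 4, the group where it is high; its values from a fit without the filter are given too. Adding 12.6 shrinks the fold of dim genes. In bulk RNA, fewer cells expressing a gene and less RNA per cell cannot be told apart.

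Against ES cells, Lhx1 rose in each of the 4 sorted groups. All 4 of these comparisons use the same 3 ES arrays. The log2 difference was 4.53 ± 0.22 (SE) in RDL day 4 (adjusted p 9.8e-11), and the mean signal was 35.7 times that of ES cells, a ratio of signals whose lower side is dim. It was 3.52 in CDL day 4 (adjusted p 2.29e-09) and 2.69 in RDL day 6 (adjusted p 2.84e-08). The lowest of these was in CDL day 6, at 0.81 (adjusted p 0.00445). A further Lhx1 probe set gave 3.78, 2.44, 1.63 and 0.60 in the same order. Each was called in a separate fit over all 45037 probe sets, without the filter.

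Osr1 rose against ES cells in RDL day 4, by 0.76 ± 0.11 (adjusted p 1.27e-05, and 9.7e-06 without the filter). It was not called in CDL day 4 (0.16, adjusted p 0.214), RDL day 6 (0.25, adjusted p 0.052) or CDL day 6 (0.01, adjusted p 0.934). The RDL day 6 value passed with adjusted p of 0.0141 to 0.0484 when 1 of 5 arrays was left out: 0.34 without RDL day 6 replicate 1, 0.32 without ES replicate 2, and 0.25 without RDL day 4 replicate 1 or CDL day 4 replicate 1 or 3. The share of all tested genes that were higher in RDL day 4 was 27.6%, and since Osr1 was admitted by that group, the count of 2 members there is a description only. In the other sorted groups 1 member was higher, with 26.6% of genes higher in CDL day 4, 28.3% in RDL day 6 and 27.8% in CDL day 6.

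Wt1, Osr2 and Pax8 were tested in a fit without the filter, over 18193 genes. Wt1 rose in RDL day 6 against ES cells by 1.00 ± 0.11 (adjusted p 9.11e-07), where 21.1% of genes in that fit were higher. In CDL day 6 the Wt1 difference from ES cells was 0.04 (95% interval -0.19 to 0.28; adjusted p 0.787). Across 8 pairwise comparisons Osr2 differed by -0.10 to 0.12 and Pax8 by -0.07 to 0.04, with adjusted p of at least 0.157 for Osr2 and 0.401 for Pax8. Their 95% intervals reached at most from -0.20 to 0.22 for Osr2 and from -0.19 to 0.15 for Pax8.

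Between day 6 and day 4 Lhx1 fell in both media. The log2 difference was -2.70 in CDL (adjusted p 1e-07; day 6 at 0.126 times day 4) and -1.84 in RDL (adjusted p 9.76e-06; 0.285 times). Osr1 was not called in CDL (-0.15, adjusted p 0.28) and fell in RDL (-0.51, adjusted p 0.00157). So 1 tested member was lower in CDL, where 22.0% of all tested genes were lower, and 2 in RDL, where 17.2% were. Wt1 went the other way in RDL, rising by 1.13 ± 0.11 (adjusted p 1.11e-06, fit without the filter; 10.1% of genes higher), while in CDL its difference was 0.12 (adjusted p 0.483). Without RDL day 6 replicate 1 that CDL difference passed (0.12, adjusted p 0.0461), as did Wt1 in RDL day 4 against ES cells (-0.12, adjusted p 0.0299). The latter passed in 3 of 24 alternatives, with a lowest adjusted p of 0.0256.

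Between the media, Lhx1 was lower in CDL than in RDL at both days. At day 4 the difference was -1.01 ± 0.22 (adjusted p 0.0139; CDL at 0.489 times RDL). That call was lost without RDL replicate 1 (adjusted p 0.0565), without RDL replicate 2 (adjusted p 0.0717) and without CDL replicate 1 (-0.94, adjusted p 0.0519). The pluripotency genes Dppa2 (1.88) and Pou5f1 (1.62) were higher in CDL at day 4, 2 of 8 tested with none lower. Beside them 2.90% of all tested genes were higher. Much of that signal lay in CDL replicate 1, whose sum over the 8 genes was 6555 against 960 to 1169 in the others of its group. The part of these genes in the Lhx1 difference was not tested. Osr1 was lower too (-0.60 ± 0.11, adjusted p 0.00284, and 0.00253 without the filter). In that comparison 1.52% of all tested genes were lower; the count of 2 members is again a description only, since RDL day 4 admitted Osr1. At day 6 Lhx1 differed by -1.87 ± 0.22 (adjusted p 4.33e-05; CDL at 0.216 times RDL), the 1 member called where 3.94% of tested genes were lower, and Osr1 was not called (-0.24, adjusted p 0.229). Wt1 was lower in CDL at day 6 (-0.96 ± 0.11, adjusted p 3.44e-05, fit without the filter; 2.85% of genes lower), and at day 4 its difference was 0.05 (adjusted p 0.948).

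**Figure D2:**
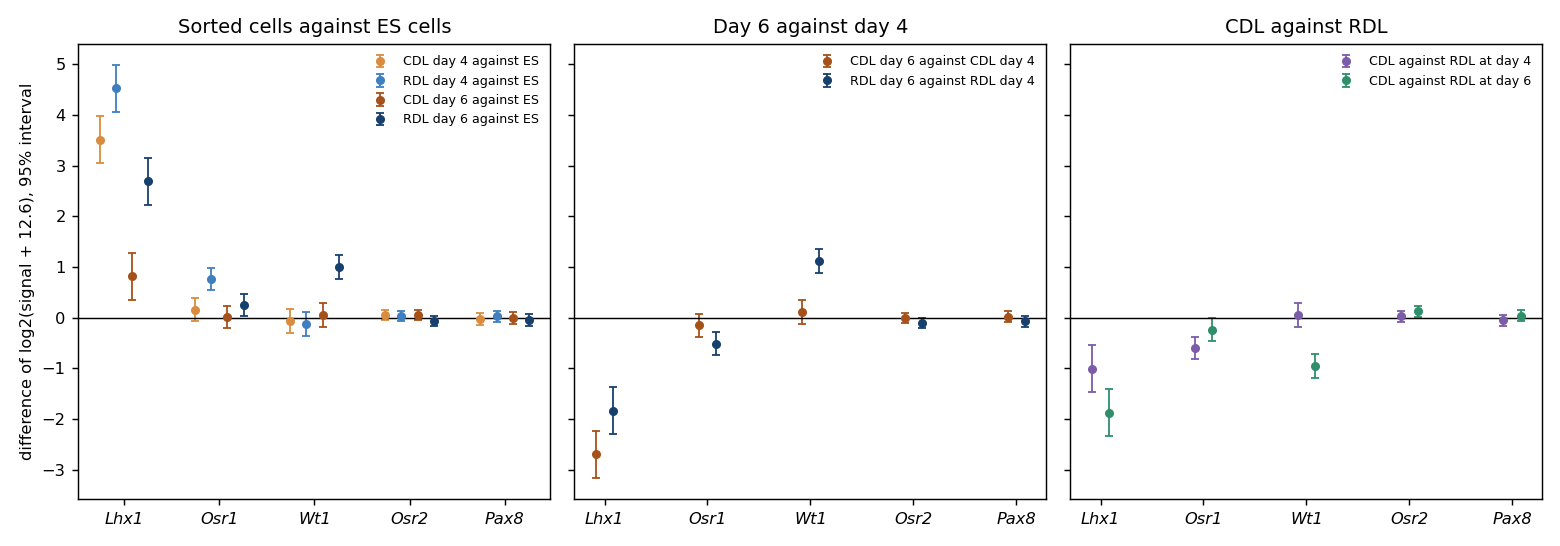
Difference of log2(signal + 12.6) with its 95% interval for each measured gene in the 8 pairwise comparisons, first-named group minus the second. The 3 panels hold the comparisons with ES cells, of day 6 with day 4, and of CDL with RDL. Lhx1 is above 0 in all comparisons with ES cells and below 0 for CDL over RDL at both days.

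Whether the difference between media changed between the days was tested as an interaction, CDL minus RDL at day 6 less the same at day 4. Cell line, strain and sort gate also change between these days, so an interaction cannot be told apart from them. For Wt1, near background in both media at day 4, the interaction was -1.01 ± 0.16 (adjusted p 0.00111, fit without the filter). In that fit 2.17% of genes were lower. For Lhx1 it was -0.87 ± 0.31 (adjusted p 0.151), and for Osr1 0.36 ± 0.15 (adjusted p 0.224), so neither of the 2 tested members was called, against 5.39% of all tested genes. The Lhx1 value became -1.23 (adjusted p 0.00032) without RDL day 6 replicate 1. The further Lhx1 probe set, in the fit over all 45037 probe sets, gave 0.32 (adjusted p 0.786), the opposite sign. Its differences of CDL against RDL were -1.34 at day 4 (adjusted p 0.00216) and -1.02 at day 6 (adjusted p 0.00924).

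**Figure D3:**
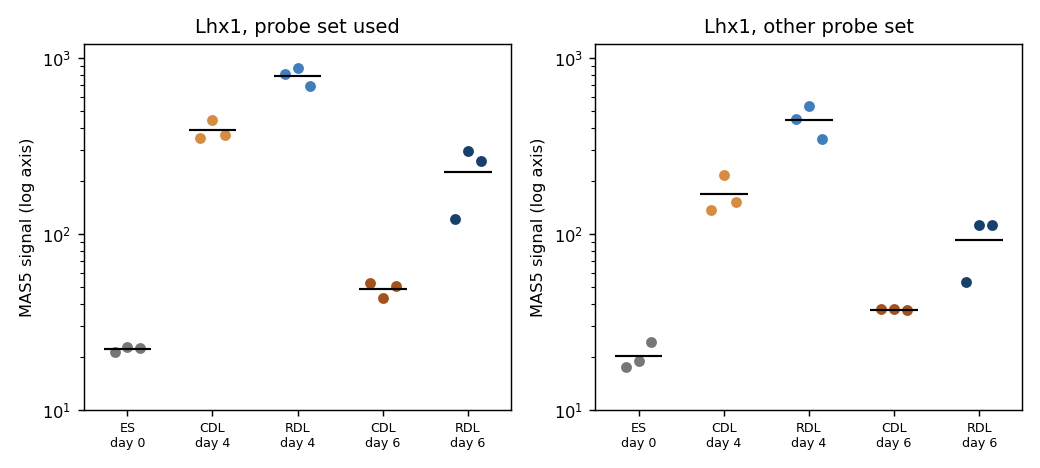
Signal of the 2 Lhx1 probe sets by array on a log axis, by group. Both place RDL day 4 highest, CDL day 4 below it and ES cells lowest, and the further probe set is dimmer in every group.

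Over the 5 measured members the median difference in the fit without the filter was 0.03 in RDL day 4 against ES cells, and -0.06 and -0.24 for CDL against RDL at day 4 and day 6. The median of all 18193 genes was -0.01, -0.00078 and 0.01 in the same comparisons. These medians stand on members of which 3 of 5 were too dim for the main test. With an added constant of 50 several called differences shrank by over 1.5 times and kept their calls. Those of Osr1 were then 0.42 in RDL day 4 against ES cells, -0.29 in RDL day 6 against RDL day 4 and -0.34 in CDL against RDL at day 4. Those of Wt1 were 0.50 in RDL day 6 against ES cells, 0.54 in RDL day 6 against RDL day 4 and -0.48 in CDL against RDL at day 6, and that of Lhx1 in CDL day 6 against ES cells was 0.45 (adjusted p 0.0475).

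Other kidney genes showed a partial picture. Of 11 genes of the nephric duct and ureteric bud, 10 had a probe set and 2 were bright enough to test. Emx2, a homeobox gene of the urogenital system, was bright enough only through RDL day 4, the 3 arrays on which it exceeded the array median. It rose there against ES cells by 1.32 (adjusted p 3.15e-06), in CDL day 4 by 0.45 (adjusted p 0.026) and in RDL day 6 by 0.58 (adjusted p 0.0053). Between media at day 4 it was lower in CDL (-0.87, adjusted p 0.00403), with 16.6, 19.5 and 19.8 in CDL and 33.9, 63.5 and 39.9 in RDL. The other tested duct gene, Wnt11, was not called in these comparisons. Gata3, a duct regulator, and Ret, the GDNF receptor of the duct tip, were dim, with group means of 9.26 to 18.0 for Gata3 and 19.5 to 32.1 for Ret. These and Wnt11 are named here after their values were seen.

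Among 12 genes of the nephrogenic mesenchyme, 7 were tested. Against ES cells in RDL day 4, 3 rose and none fell, namely Cited1 (4.72), Itga8 (3.63) and Wnt4 (0.71). The list median was 0.36 beside -0.01 for all tested genes, of which 27.6% were higher. In CDL day 4, 3 rose and 1 fell, namely Cited1 (4.85), Itga8 (3.35), Crym (0.55) and Eya1 (-1.43). There 26.6% of all tested genes were higher and 29.6% lower. Crym was bright enough only through CDL day 4. Cited1 is a transcriptional coregulator of the cap mesenchyme, Itga8 an integrin subunit and Wnt4 an inducer of nephron formation. In RDL day 6, 4 rose and 2 fell, led by Itga8 (2.83), Sall1 (-1.35), Six2 (1.16) and Eya1 (1.01), where 28.3% of all tested genes were higher and 33.3% lower. The list median there was 0.51 beside -0.04 for all tested genes. In CDL day 6, 4 rose and 1 fell, led by Six2 (1.29), Eya1 (0.90), Itga8 (0.88) and Crym (-0.68). Of all tested genes 27.8% were higher in that group and 33.3% lower. Six2 and Eya1 are also expressed in other mesenchyme, including somite derivatives.

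Between media at day 4, 2 of the 7 mesenchyme genes were lower in CDL and 1 was higher: Eya1 (-1.17, adjusted p 0.000126), Wnt4 (-0.50, adjusted p 0.0094) and Crym (0.44, adjusted p 0.0389). Crym was admitted to the test by CDL day 4, the group where it is high. Of all tested genes 1.52% were lower in CDL and 2.90% higher. The list median was -0.28 beside -0.0023 for all tested genes. At day 6, Itga8 was lower in CDL (-1.95, adjusted p 2.2e-07) and Sall1 higher (0.96, adjusted p 0.00973). Of 10 genes of the nephron epithelium and podocyte, 3 were tested, and none were called between media at either day. Their median at day 6 was 0.05, and Nphs1, a podocyte slit diaphragm gene named after its values were seen, differed by 0.22 (adjusted p 0.177), with CDL the higher. Nphs1 was bright enough only through ES cells, so that difference is between dim values, with means of 23.4 in CDL and 18.3 in RDL. Among those too dim to test, Synpo, a podocyte actin-binding protein gene named after its values were seen, had 11.8, 10.1 and 11.4 in CDL and 30.01, 59.9 and 68.0 in RDL at day 6. The RDL arrays lay above the CDL arrays there, and replicate 1 of RDL was again the lowest of its group.

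**Figure D4:**
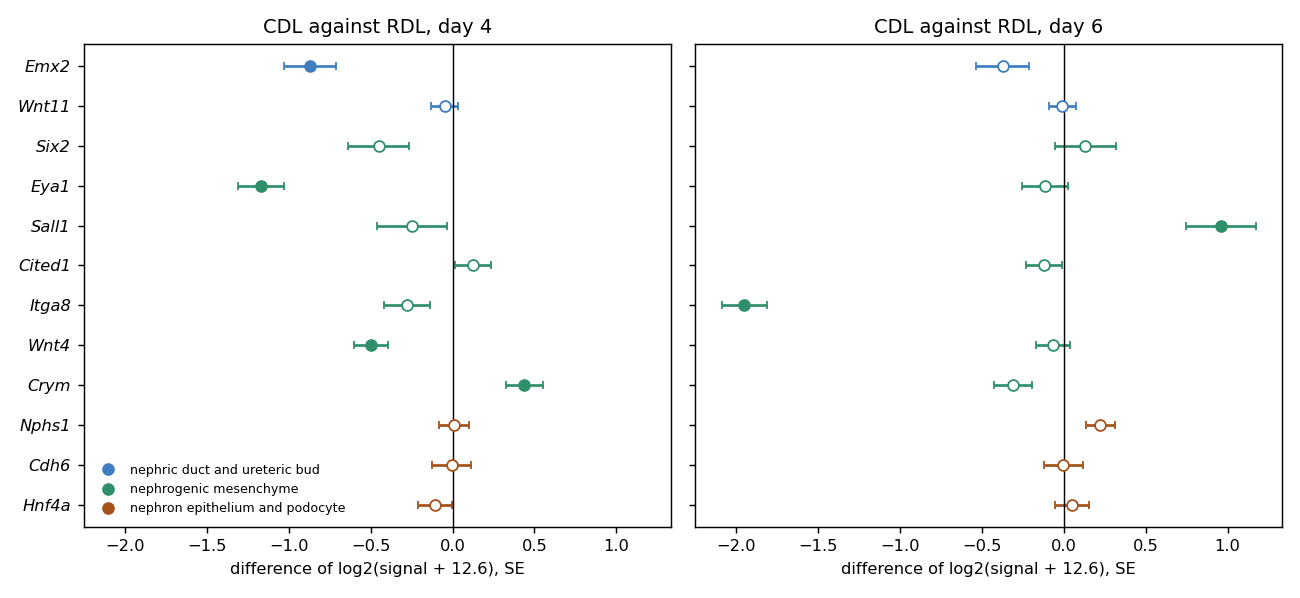
Difference of log2(signal + 12.6) with its SE for the tested genes of the nephric duct, nephrogenic mesenchyme and nephron lists, one panel for each day, CDL over RDL. Filled points are called and open points are not; Eya1, Emx2 and Wnt4 are below 0 at day 4 and Itga8 at day 6.

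Genes of neighbouring lineages moved beside these members. Of 13 tested paraxial mesoderm and somite genes, 6 were lower in CDL at day 4 and 1 higher, with a list median of -0.85. The lower ones were led by Meox1 (-2.42), Tcf15 (-1.96), Ripply2 (-1.69) and Mesp2 (-1.42). Ripply2 was bright enough only through RDL day 4. The higher one was Msgn1 (0.77), the gene of the day 4 sort reporter. At day 6, 3 of the 13 were higher and 1 lower, led by Uncx (1.59). Over all tested genes, 1.52% were lower in CDL and 2.90% higher at day 4, with 3.94% and 3.68% at day 6. In the lateral plate and cardiac list, 7 of 12 genes were tested, and at day 6 3 were lower in CDL and none higher: Prrx1 (-2.03), Gata6 (-0.97) and Bmp4 (-0.48). Prrx1, a limb and lateral plate mesenchyme factor, had 47.8, 50.1 and 48.3 in CDL against 193, 258 and 269 in RDL. Of 9 tested genes of the embryonic fibroblast list, which also covers the feeders, 5 were lower in CDL at day 6 and none were called at day 4. The lower ones were led by Lum (-2.22), which was bright enough only through RDL day 6, and Pdgfra (-1.45). The list medians at day 6 were -0.48 for the lateral plate and -0.66 for the fibroblast genes, beside 0.0013 for all tested genes. The summed signal of the 10 fibroblast genes was 6188 to 7925 in CDL day 6 against 9889 to 12293 in RDL day 6, and 245 to 271 in ES cells. Of 9 tested anterior streak and organiser genes, where Lhx1 is also known, 3 were lower in CDL at day 6 and 1 higher: Otx2 (-2.79), Eomes (-1.82), Cer1 (-1.11) and Shh (1.71). The summed signal of the 10 with a probe set was 467 to 708 in CDL day 6 against 716 to 869 in RDL day 6. At day 4, 1 was lower (Cer1, -0.52) and 1 higher (Mixl1, 0.69). The summed signal then ran the other way, at 1775 to 2158 in CDL day 4 against 1424 to 1646 in RDL day 4. The part of these cell types in the Lhx1 and Wt1 differences was not tested. Of 10 coelomic epithelium and gonad genes 4 were tested, and none were called between media. Among 5 tested neural genes none were called either. Coelomic Nr0b1 and neural En2 and Tubb3, named after their values were seen, were bright chiefly in ES cells. Their day 6 means were 9.38 to 19.0, so a difference between media there could hardly be seen. Of 8 tested endoderm genes 1 was higher and 1 lower at day 4, Epcam (0.76) and Gata6 (-0.52). At day 6, 2 were lower, Sox17 (-1.39), which was bright enough only through RDL day 6, and Gata6.

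BMP positions the boundary between intermediate and paraxial mesoderm in chick embryos, and all sorted groups had received the BMP inhibitor. In RDL day 4 against ES cells 4 of 9 tested BMP response genes rose and 2 fell, beside 27.6% of all tested genes higher and 29.5% lower. Those that rose were Id1 (4.11), Id3 (3.19), Msx1 (2.78) and Id2 (2.50). Those that fell, named beyond the 4 largest, were Id4 (-2.15) and Smad7 (-1.75). In CDL day 4 likewise 4 rose and 2 fell, led by Id1 (4.19), Id3 (2.90), Id4 (-2.35) and Msx1 (2.32). There 26.6% of all tested genes were higher and 29.6% lower. The summed signal of 10 such genes was 2211 to 7829 in RDL day 4, 2583 to 4710 in CDL day 4 and 1643 to 1769 in ES cells. Of these 9 genes none were called between media at day 4, and at day 6 2 were lower in CDL, Msx1 (-0.63) and Smad6 (-0.43). For this and the lists below, 1.52% of all tested genes were lower in CDL and 2.90% higher at day 4. At day 6 these shares were 3.94% and 3.68%. Of 10 tested genes of the retinoic acid pathway, 3 were lower in CDL at day 4 and none higher: Rarb (-1.22), Cyp26a1 (-0.86) and Dhrs3 (-0.46). At day 6, 3 were higher and 2 lower, led by Aldh1a2 (1.95), which makes retinoic acid, and Cyp26a1 (-1.72), which degrades it. Within the LIM homeobox family, 3 of 12 genes were tested, and against ES cells in RDL day 4 2 rose, Lhx1 and Isl1 (2.50), a second heart field gene. All 6 LIM cofactor genes, whose proteins join LIM factors into complexes or control their stability, were tested, and in that comparison 4 rose and 1 fell, led by Ssbp2 (2.53) and Ssbp3 (1.96), beside 27.6% of all tested genes higher and 29.5% lower. Of the 5 tested Pax genes, Pax3 alone was called between media, at -0.85 for day 4 and 0.76 for day 6.

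The genes whose pattern was most like a tested member were found by Pearson's r of the log2 values over the 15 arrays, which are grouped and share cell line and sort within groups; r is a description only. For Lhx1 they were Itga8 (r 0.964), Cacna2d1, a calcium channel subunit (0.963), Fut4, a fucosyltransferase (0.958), Dlst, a mitochondrial enzyme subunit (0.952) and Ms4a4d (0.947). For Osr1 they were Lhx1os (0.894), Wnt4 (0.886), Emx2 (0.884), Ccdc134 (0.874) and Chrna3, a nicotinic receptor subunit (0.858). Lhx1os is a transcript next to Lhx1 in RefSeq gene order. Its signal at day 4 was 22.8, 33.7 and 41.1 in CDL and 69.7, 61.1 and 79.9 in RDL, beside 13.3, 13.8 and 15.3 in ES cells. The RDL day 4 arrays of Lhx1os lay above all others, as for Osr1 and Lhx1. Lhx1os was picked for its likeness to Osr1, which is highest in that group, and was bright enough only through RDL day 4. The shared peak is therefore a description only.

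**Figure D5:**
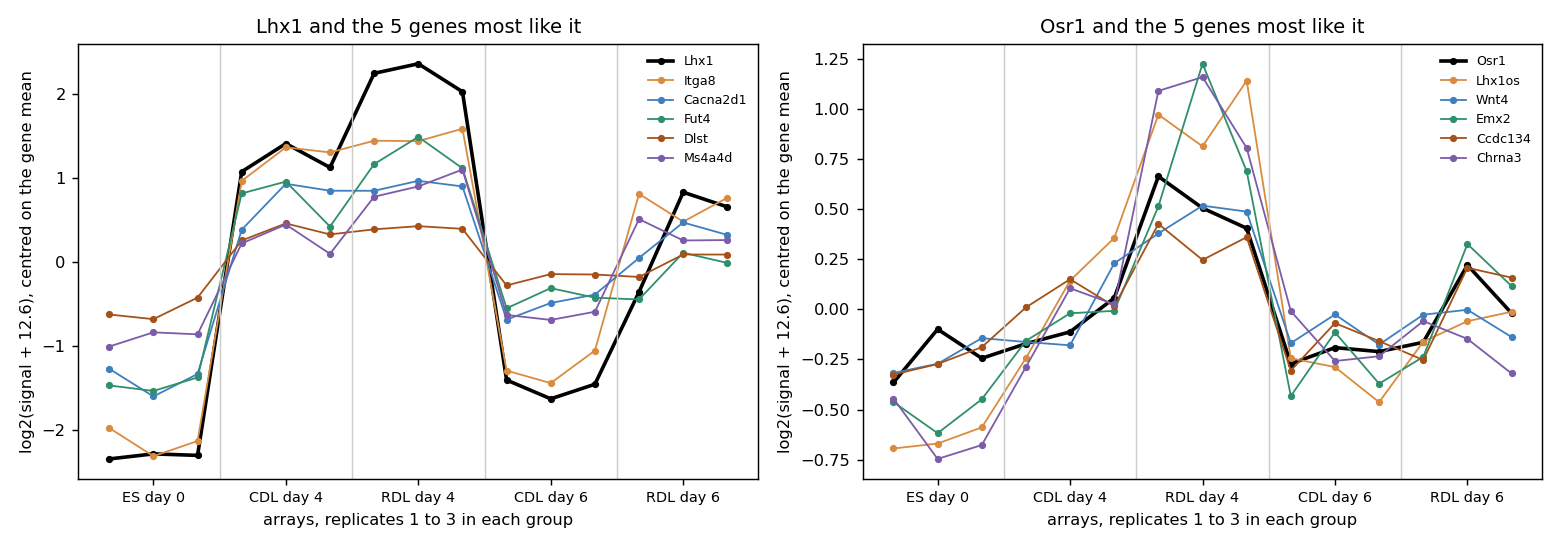
log2(signal + 12.6) of Lhx1 and of Osr1 with the 5 genes most like each, centred on the gene mean, for the 15 arrays in their groups. Each gene has its highest group mean in RDL day 4 and its lowest in ES cells.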

How the data were processed

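Gene expression was measured on 15 arrays with 3 per group. The values are intensity values that the authors deposited, computed with MAS5 per the submitters' processing notes, on a linear scale; no scaling target or version is given in the sources used here. Of 45101 probe sets, 64 controls were left out, and 34945 of the rest name a single gene, 932 several and 9160 none. The gene's probe set with the highest mean was used (18193 genes), values were turned into log2(signal + 12.6), where 12.6 is the median over arrays of the 25th percentile, and 12400 genes above the array median on at least 3 arrays were tested. The model (limma 3.58.1, R 4.3.3, lmFit and eBayes with a trend, all 15 arrays, 9 comparisons, no block) used Benjamini-Hochberg adjustment with a threshold of 0.05. No 2 arrays held identical values, and their number limits the precision. The procedure was tested on simulated data. Sequences came from RefSeq.

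The members and lists were chosen with earlier results of these data known. Named genes are the members, up to 4 called genes of each other list in the comparison described, Msgn1, Pax3, and the 5 genes most like each tested member; others are marked where they appear. Same-numbered samples were checked for pairing by the correlation of their deviations from group means. Every pair was over 0.1 in 2 of 10 group pairs, RDL day 4 with RDL day 6 (0.219 to 0.285) and RDL day 4 with CDL day 6 (0.106 to 0.275). RDL day 6 with CDL day 6 was mixed, at 0.609 for replicate 1, 0.588 for replicate 2 and -0.241 for replicate 3. The day 6 arrays of replicates 1 and 2 thus deviated together across media, and the main model had no block for this. Alternatives covered the added constant, normalization, variance trend, replicate block, probe set choice, filter, samples fitted and each array left out.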

Additional observations from a re-analysis of the deposited data

Results flagged for a closer look

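The Wt1 difference between media was not the same in the day 4 and day 6 groups. Its interaction was -1.01 (adjusted p 0.00111, limma over all genes without the filter, n = 3 each). Those groups also differ in cell line, strain and sort gate, so the change cannot be told apart from these. At day 4 Wt1 was near background in both media, at 9.76 to 12.1, so a difference between media there could hardly be seen. Wt1 differed by -0.96 in CDL against RDL at day 6 and by 0.05 at day 4, and at day 6 all 3 CDL arrays lay below all 3 RDL arrays. The call held without each array in turn, with the interaction between -1.22 and -0.89. Over all alternatives it ran from -1.53 with an added constant of 1 to -0.50 with an added constant of 50, each called.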

How the results depend on the processing

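Of the values recomputed for the 9 comparisons (225 counts of members called, 234 for Lhx1, 225 for Osr1 and 216 for Wt1), none reversed a called direction. Counts of members called, of which the 225 recomputed values gave 205 within 1.5 times, changed as follows. For RDL day 6 against ES cells the count was 1 and became 2 with an added constant of 1, with the mean of a gene's probe sets and with the replicate block (Osr1 in each case), and 2 with no filter and with a filter of 2 arrays (Wt1). It was 2 without both arrays that stood apart, and 1 to 2 over single arrays left out. For CDL against RDL at day 4 it was 1 to 2 over single arrays left out, against 2. At day 6 it was 2 with no filter or a filter of 2 arrays, against 1. For the interaction it was 1 under no filter, a filter of 2 arrays and without both arrays, against 0, and 0 to 1 over single arrays left out. The filter of 2 arrays was chosen after seeing the data.

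The replicate block changed no other call of a member; its adjusted p for Osr1 in RDL day 6 against ES cells was 0.0496, and those groups were not among the pairs that deviate together. Counts over all genes moved by over 1.5 times in few settings: for CDL against RDL at day 4, 353 without RDL replicate 1 and 341 without RDL replicate 2, against 547; at day 6, 442 with only these groups fitted, 1512 without RDL replicate 1 and 1776 without both arrays, against 944; for the interaction, 1216 and 1237 without RDL day 6 replicate 1 and without both, against 668. The cause was not tested. Wt1, Osr2 and Pax8 lie near background in most or all groups and Osr1 is dim, which limits what these arrays show of them.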
